A study of Mus musculus with 6 samples.

Results

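The nuclear-encoded subunits of respiratory complex I were followed in hearts of mice after myocardial infarction, in which part of the heart wall dies when its coronary blood supply is cut off. Members were the protein-coding genes whose symbol is Ndufa, Ndufb, Ndufc, Ndufs or Ndufv with a number, and Ndufab1. Assembly factors and pseudogenes were left out. The rule used no measured value and gave 37 genes of the 55401 gene rows. All 37 passed the expression filter, which kept 16757 genes. One group was kept in mild cold, at 16 °C for 7 days, and gave 3 libraries (mild cold 1 to 3). The other was kept at room temperature, at 22 °C, and gave 3 libraries (room temperature 1 to 3). All had an infarct, so no uninfarcted heart entered the comparison, and the strain, sex, age and time after infarction were not stated in the labels. The labels number the libraries without saying that each is a separate animal, so the p-values rest on library-to-library spread alone, which could be technical.

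Complex I is the entry point of the mitochondrial respiratory chain. It takes electrons from NADH, passes them along a row of iron-sulfur clusters in its matrix arm to ubiquinone, and pumps protons through its membrane arm. The conserved core of the matrix arm is encoded in the nucleus and that of the membrane arm in mitochondrial DNA, and a shell of accessory subunits, all nuclear-encoded, surrounds both. Heart muscle cells hold a large amount of the complex, because they make nearly all of their ATP by respiration.

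Library totals ran from 41619023 to 65285901 counts, and mitochondrially encoded genes took 34.4% to 41% of them in mild cold and 26.2% to 31.6% at room temperature. The libraries are labelled as whole heart, and heart muscle genes were abundant in all 6. Room temperature 1 stood apart. It held 28312 counts of the atrial light chain Myl7, against at most 18 in any other library. A whole heart includes the atria, so for this gene the other libraries did not match their label. Room temperature 1 also held 8688 counts of Ucp1, the uncoupling protein of brown fat, against at most 2 in any other. Room temperature 3 held 1638 counts of Myh4, a myosin of fast skeletal muscle, against at most 16 in any other. With each library left out in turn, the median log2 fold change of the 37 subunits lay between 0.46 and 0.61, and it was 0.49 without room temperature 1.

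All 37 subunits had more transcript in mild cold than at room temperature, and in all 37 the lowest mild cold library lay above the highest room temperature library. Over all 16757 genes tested, 12.0% showed such a separation with mild cold higher. The median log2 fold change (mild cold over room temperature) was 0.50, a fold of 1.42, and single members ran from 0.38 to 0.74. Over all genes tested the median was -0.02, and the middle part, from the 25th to the 75th percentile, ran from -0.27 to 0.20, below every subunit. In edgeR's quasi-likelihood test all 37 had an unadjusted p under 0.05 (from 0.000226 to 0.0213), against 9.11% of all genes tested in that direction. No member passed an adjusted p of 0.05 over all genes, where 0.0% of genes did. The members' adjusted p ran from 0.0878 to 0.186, and 15 of them were under 0.1. The DESeq2 Wald test, run on the same counts, called 36 of the 37 as higher at an adjusted p of 0.05, against 3.91% of all genes, and the exception was Ndufa11. In RNA of a whole organ, more cells of a type and more RNA in each cell cannot be told apart.

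**Figure D1:**
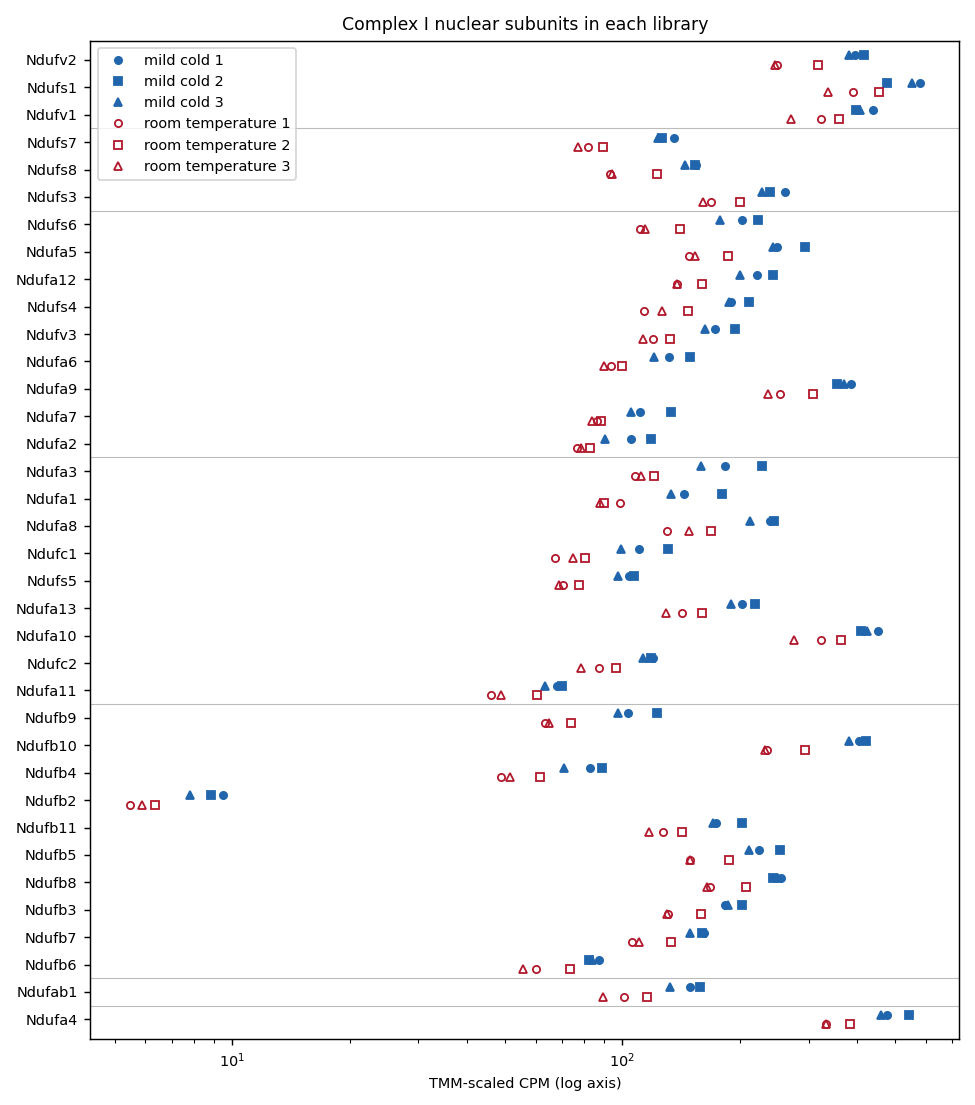
Levels of 36 of the 37 subunits in each library, in TMM-scaled CPM (log axis), with filled blue symbols for mild cold and open red symbols for room temperature, and grey lines between structural groups. In every row the 3 blue symbols lie to the right of the 3 red ones, and Ndufb2 lies far to the left of the other genes.

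Levels are given as CPM, which are counts scaled to a common library size after TMM normalisation. Summed over the 37 subunits they were 8379, 8580.2 and 7834 CPM in mild cold 1 to 3, against 5532, 6502 and 5279 CPM in room temperature 1 to 3, so the lowest mild cold sum exceeded the highest room temperature sum. As a share of all nuclear counts, with no scaling, the subunits made up 1.20 ± 0.0651% across mild cold libraries and 0.876 ± 0.0615% across room temperature libraries (SD, n = 3 per group), for a ratio of 1.37. As a share of all counts, mitochondrially encoded ones included, they made up 0.756 ± 0.0295% across mild cold libraries and 0.626 ± 0.0200% across room temperature libraries, for a ratio of 1.21. The size of the difference thus depended on the denominator. With library totals only, the median log2 fold change was 0.25 while the median of all genes was -0.27, 22 members had a p under 0.05 (2.3% of all genes did in that direction), and 31 members had groups that did not overlap (2.77% of all genes). With the totals of nuclear counts only, a scaling chosen after seeing the data, all 37 had a p under 0.05 and groups that did not overlap (6.35% and 8.58% of all genes), and the median was 0.43 against -0.09 over all genes. Without the deepest library of each group, 26 members had a p under 0.05 (5.37% of all genes). With no expression filter, 5 members passed an adjusted p of 0.05 in edgeR (0.204% of all genes), namely Ndufa1, Ndufa3, Ndufb9, Ndufs6 and Ndufs7.

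Of the 7 conserved core subunits of the matrix arm, 3 belong to the module that oxidises NADH. Ndufv1, the flavoprotein that binds NADH, stood at 438, 396 and 406 CPM across mild cold 1 to 3, against 322, 358 and 269.8 CPM across room temperature 1 to 3. Its iron-sulfur partner Ndufv2 stood at 395, 416 and 381 CPM across mild cold 1 to 3, against 248, 316 and 246 CPM across room temperature 1 to 3. Ndufs1, the largest subunit of the complex and the carrier of several iron-sulfur clusters, stood at 579, 477 and 552 CPM across mild cold 1 to 3, against 389.6, 456 and 337 CPM across room temperature 1 to 3. All 3 had every mild cold library above every room temperature library, and the log2 fold change was 0.38 for Ndufv1, 0.56 for Ndufv2 and 0.44 for Ndufs1. The gap between the groups was narrow for Ndufs1, whose lowest mild cold value, in mild cold 2, was 1.05 times its highest room temperature value. Ndufs1 and Ndufv1 were also the only members whose unadjusted p was not under 0.05 without mild cold 1, without mild cold 3 or without room temperature 3.

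The core of the module that reduces ubiquinone includes Ndufs3, Ndufs7 and Ndufs8. Ndufs7, which holds the last iron-sulfur cluster before ubiquinone, stood at 136, 126 and 124 CPM across mild cold 1 to 3, against 81.8, 89.4 and 76.9 CPM across room temperature 1 to 3. Its groups were the farthest apart of all 37, with the lowest mild cold value at 1.38 times the highest room temperature value, and its log2 fold change was 0.64 (SE 0.10, edgeR adjusted p = 0.0878, the smallest among the members). Ndufs8, an iron-sulfur protein of the ferredoxin type, stood at 155, 153 and 145 CPM across mild cold 1 to 3, against 92.9, 123 and 94.0 CPM across room temperature 1 to 3. Ndufs3 stood at 261, 239 and 229 CPM across mild cold 1 to 3, against 169, 199.8 and 160.5 CPM across room temperature 1 to 3. In both genes room temperature 2 was the highest of its group and still lay below every mild cold library. Over the 7 core subunits the median log2 fold change was 0.46, and over the 29 accessory subunits it was 0.51 (Ndufa4 in neither). The difference between these medians was not tested.

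Among the 9 accessory subunits of the matrix arm the log2 fold change ran from 0.40 to 0.72, with a median of 0.54. Ndufs6, a zinc-binding subunit, stood at 203, 223 and 178 CPM across mild cold 1 to 3, against 111, 141 and 115 CPM across room temperature 1 to 3. Ndufa5 stood at 249, 294 and 243 CPM across mild cold 1 to 3, against 148, 186 and 153 CPM across room temperature 1 to 3. These 2 had the largest differences of the arm, 0.72 and 0.69 (edgeR adjusted p = 0.0944 for both). Ndufa2, a subunit with a thioredoxin-like fold, stood at 105, 119 and 90.5 CPM across mild cold 1 to 3, against 76.7, 82.5 and 78.3 CPM across room temperature 1 to 3. Ndufa7 stood at 111, 133 and 105 CPM across mild cold 1 to 3, against 85.9, 88.4 and 83.7 CPM across room temperature 1 to 3. They had the smallest differences of the arm, 0.40 for Ndufa2 and 0.44 for Ndufa7, and in both the room temperature libraries lay close together. The other 5 lay in between, among them Ndufs4, which is needed for a stable NADH module (0.60), and Ndufa9, which holds a bound NADPH (0.48).

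The proximal part of the membrane arm has 9 accessory subunits, and it held both ends of the range. Ndufa3, a small membrane subunit, stood at 183, 228 and 159 CPM across mild cold 1 to 3, against 108, 121 and 112 CPM across room temperature 1 to 3. Ndufa1, a small X-linked subunit needed for assembly, stood at 144, 179.6 and 134 CPM across mild cold 1 to 3, against 98.4, 90 and 87.7 CPM across room temperature 1 to 3. Their log2 fold changes, 0.74 (SE 0.14) and 0.73 (SE 0.13), were the largest of the 37, and in both mild cold 2 lay well above the other libraries. Without mild cold 2 they were 0.60 for Ndufa3 and 0.59 for Ndufa1, below Ndufs7 at 0.65. Ndufa11, which contacts complex III in the respiratory supercomplex, stood at 68.2, 70.0 and 63.4 CPM across mild cold 1 to 3, against 46.2, 60.3 and 48.8 CPM across room temperature 1 to 3. It shared the smallest difference of the 37 with Ndufv1, 0.38 (SE 0.12, edgeR adjusted p = 0.16), and its groups were nearly touching, at 63.4 CPM in mild cold 3 against 60.3 CPM in room temperature 2. Ndufa10, which has the fold of a nucleoside kinase, stood at 452, 409.9 and 422 CPM across mild cold 1 to 3, against 322, 363 and 276 CPM across room temperature 1 to 3. Its log2 fold change was 0.42. The median of the 9 was 0.51.

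The distal part of the membrane arm is covered by the Ndufb subunits, of which 10 were members. Their log2 fold changes ran from 0.42 to 0.68 with a median of 0.50. Ndufb9, an LYR-motif protein that binds the acyl carrier protein, stood at 104, 123 and 97.2 CPM across mild cold 1 to 3, against 63.5, 73.8 and 64.7 CPM across room temperature 1 to 3. Ndufb10, a twin-cysteine protein of the intermembrane space, stood at 404, 421 and 382 CPM across mild cold 1 to 3, against 234, 295 and 232 CPM across room temperature 1 to 3. They had the largest differences of the group (0.68 and 0.67). Ndufb6 stood at 87.0, 82.3 and 83.8 CPM across mild cold 1 to 3, against 60.0, 73.5 and 55.8 CPM across room temperature 1 to 3. Ndufb7, another twin-cysteine protein, stood at 162, 160.4 and 149 CPM across mild cold 1 to 3, against 106, 133 and 110.1 CPM across room temperature 1 to 3. With 0.42 and 0.43 these had the smallest differences, yet neither pair of groups overlapped. Of the Ndufb6 exon bases, 39.0% lie in exons of Smim27 on the opposite strand, and the strand setting of the counting is not given in the sources used here. Reads in these shared bases therefore cannot be told apart from those of Smim27, and how they were counted was not tested.

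Ndufab1, the mitochondrial acyl carrier protein, sits in both arms of the complex and also serves the making of lipoic acid. It stood at 149, 158 and 133 CPM across mild cold 1 to 3, against 101, 116 and 89.3 CPM across room temperature 1 to 3, a log2 fold change of 0.52. Ndufa4 fits the symbol rule but was later placed with cytochrome c oxidase. It stood at 477, 544 and 459.9 CPM across mild cold 1 to 3, against 333, 383 and 333 CPM across room temperature 1 to 3, with a log2 fold change of 0.50, the same as the median of all 37. The row named Ndufb1-ps, typed as a noncoding RNA in the annotation and so not a member, averaged 128 ± 35.2 CPM across the mild cold libraries against 77.2 ± 2.45 CPM across those at room temperature (SD, n = 3 per group). Ndufa4l2, a relative of Ndufa4 outside the rule, averaged 18.9 ± 1.21 CPM across the mild cold libraries against 16.2 ± 3.41 CPM across those at room temperature, where the groups overlapped (edgeR adjusted p = 0.502).

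**Figure D2:**
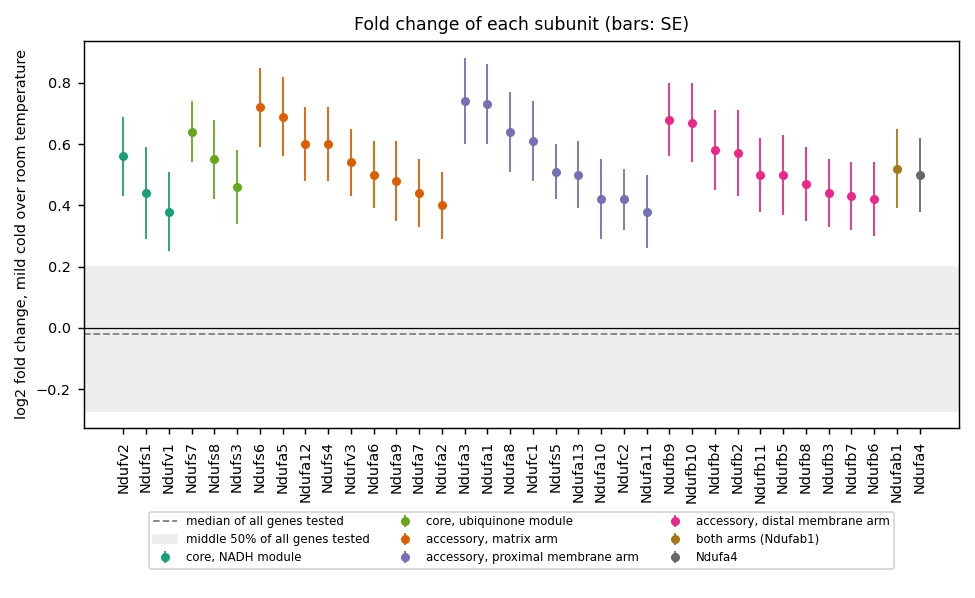
Log2 fold change of 36 of the 37 subunits, mild cold over room temperature (points), with its SE (bars), coloured by place in the complex. The grey band is the middle 50% of all genes tested, from -0.27 to 0.20, and the dashed line their median, -0.02. All 36 points lie between 0.38 and 0.74, above the band.

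Promoter sequences were searched because all members were higher in the same group. Sequences are from RefSeq (GRCm38.p6), from 250 bases before to 50 bases after each gene start, and 33 of the 37 members were matched by symbol. Letters were searched on both strands, and no member held more than 1 of the 4 motifs. The YY1 site, the capital letters below, was in 4 of the 33 member promoters (12.1%) and in 0.755% of the 27025 gene symbols with a promoter. All 4 matches lay after the gene start, on the strand of the gene, between positions 25 and 46 counted from 1 at the first base of the gene. In each of the 4 the ATG inside the letters is the annotated start codon of the gene (GENCODE M21, GRCm38). The match therefore includes coding sequence. These stretches of 30 bases are shown to let the 4 starts be compared, with the letters searched in capitals.
Ndufs7 chr10:80249464-80249493, plus strand: gccgaggccAAGATGGCGGCgctggcgggt
Ndufa9 chr6:126849095-126849124, minus strand: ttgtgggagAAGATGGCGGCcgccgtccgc
Ndufs6 chr13:73328433-73328462, minus strand: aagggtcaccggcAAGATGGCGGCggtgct
Ndufs4 chr13:114388045-114388074, minus strand: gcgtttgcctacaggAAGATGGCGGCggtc
These 4 members encode a core subunit (Ndufs7) and 3 accessory subunits of the matrix arm, and their log2 fold changes ran from 0.48 for Ndufa9 to 0.72 for Ndufs6.

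The other 3 motifs were each found in 1 member promoter (3.03%). TNAAGGTCA, the site of the estrogen-related receptors, was in Ndufb4 and in 1.43% of all symbols. The palindromic site of NRF1, in capitals below, was in Ndufa11 and in 1.07%. CCGGAAGT, an ETS site that GABPA can bind, was in Ndufs3, on the opposite strand at the gene start, and in 4.31%. The last 100 bases before the gene start are shown for the first 2, where the match lies upstream, with the letters in capitals.
Ndufb4 chr16:37654369-37654468, minus strand: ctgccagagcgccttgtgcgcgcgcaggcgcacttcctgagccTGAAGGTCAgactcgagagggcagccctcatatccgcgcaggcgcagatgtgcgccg
Ndufa11 chr17:56717662-56717761, plus strand: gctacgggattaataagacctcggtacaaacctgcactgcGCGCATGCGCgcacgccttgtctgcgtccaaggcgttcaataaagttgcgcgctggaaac
Ndufb4 had a log2 fold change of 0.58, and Ndufa11, 0.38. A match to letters is a description of the window and not a binding site.

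Regulators of mitochondrial genes had a median log2 fold change of 0.02 over 11 genes. Ppargc1a, the coactivator that drives mitochondrial gene expression, stood at 101, 91.1 and 114 CPM across mild cold 1 to 3, against 203, 129 and 89.3 CPM across room temperature 1 to 3, with overlapping groups and its highest value in room temperature 1, the library that held Ucp1 (log2 fold change -0.46, edgeR adjusted p = 0.394). Esrra, an estrogen-related receptor, averaged 77.3 ± 15.7 CPM across the mild cold libraries against 62.4 ± 5.20 CPM across those at room temperature (SD, n = 3 per group, adjusted p = 0.311 by edgeR). Nrf1 averaged 10.3 ± 0.578 CPM across the mild cold libraries against 10.3 ± 1.46 CPM across those at room temperature, and Gabpa averaged 65.4 ± 1.43 CPM across the mild cold libraries against 64.3 ± 5.36 CPM across those at room temperature. Yy1 averaged 59.7 ± 1.32 CPM across the mild cold libraries against 60.6 ± 2.88 CPM across those at room temperature. Of the 11 regulators listed, only Tfam, which packages and transcribes mitochondrial DNA, had groups that did not overlap and an unadjusted p under 0.05 (0.00914, edgeR adjusted p = 0.143), at 47.9, 42.6 and 43.5 CPM across mild cold 1 to 3, against 32.9, 38.7 and 34.3 CPM across room temperature 1 to 3. Groups that did not overlap, with mild cold higher, were found for 12.0% of all genes tested. In edgeR, 9.11% of all genes tested had an unadjusted p under 0.05 in that direction. Finding 1 such gene among 11 therefore does not set the regulators apart from all genes. The values given for regulators are transcript levels and not protein amounts or activity.

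Subunit transcripts differ in length, so levels were compared between genes only as CPM per kb of the longest coding transcript. The median over the 37 was 201 CPM per kb in mild cold and 148 CPM per kb at room temperature. Ndufa4 was highest, with 809 ± 73.0 CPM per kb in mild cold and 573 ± 47.3 CPM per kb at room temperature (SD, n = 3 per group). Ndufb10 followed with 549.7 ± 27.2 CPM per kb in mild cold and 346 ± 48.8 CPM per kb at room temperature. Ndufa3 and Ndufa1, neighbours lower in the order, did not differ from each other beyond their spread, at 369 ± 67.3 and 364 ± 57.6 CPM per kb in mild cold.

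At the low end stood Ndufab1, with 42.2 ± 3.75 CPM per kb in mild cold and 29.4 ± 3.84 CPM per kb at room temperature, and Ndufb2, with 1.99 ± 0.193 CPM per kb in mild cold and 1.35 ± 0.0983 CPM per kb at room temperature. Ndufb2 held 257 to 584 counts in a library, where no other member held fewer than 2172. Without Ndufb2, the highest member was 19.2 times the lowest in mild cold and 19.5 times at room temperature. The Ndufb2 level is uncertain. Of its shortest coding transcript, 455 bases long, 50.3% lies in exons of other annotated genes, and whether reads were lost there was not tested. The genes that share exon bases with any Ndufb2 transcript are Gm42420 on the same strand, and Gm16272 and Braf on the opposite one. Its log2 fold change, 0.57, lay within the range of the others. The order of the members was nearly the same in both groups (Spearman rho across the 37 genes 0.98, a description since both share the same transcripts and lengths). It depended more on the length chosen, with rho of 0.74 against an order by all exon bases and 0.72 against an order by the shortest coding transcript. Ndufb2 was last under each length. By all exon bases Ndufa1 was first in mild cold, at 364 CPM per kb against 357 for Ndufa4, and Ndufa4 was first at room temperature.

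**Figure D3:**
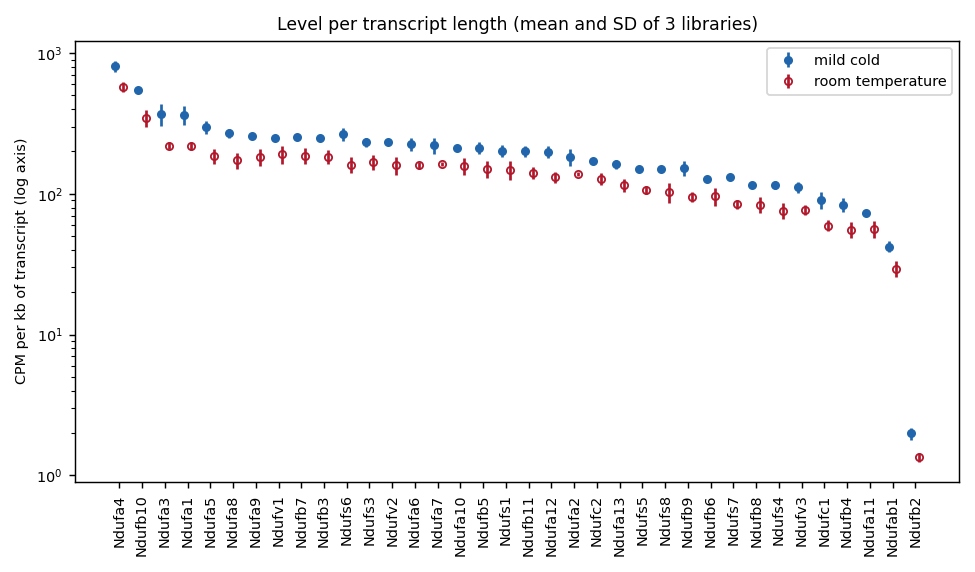
Level of 36 of the 37 subunits as CPM per kb of its longest coding transcript (log axis), mean and SD of 3 libraries, with mild cold filled blue and room temperature open red. Ndufa4 is highest and Ndufb2 lowest in both groups, and the blue point lies above the red one for every gene shown.

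The 3 libraries of a group were not alike. In room temperature 2, 36 of the 37 subunits had the highest level of their group, and Ndufa1, highest in room temperature 1, was the exception. In mild cold, 24 subunits were highest in mild cold 2 and 13 in mild cold 1, and 30 were lowest in mild cold 3. The highest library differed by transcript length. Of the 19 subunits with a longest coding transcript of up to 971 bases, 16 were highest in mild cold 2, and the median ratio of mild cold 2 to mild cold 1 was 1.11. Of the 18 longer ones, 8 were highest in mild cold 2 and 10 in mild cold 1, with a median ratio of 0.97. Over all protein-coding genes tested the same ratio was 1.13 up to that length and 1.0 above it.

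The difference between the groups was set beside length too. The median log2 fold change was 0.50 for the 19 shorter subunits and 0.51 for the 18 longer ones. Over all protein-coding genes tested it was 0.16 up to that length and -0.02 above it. Across the 37 genes Spearman's rho between fold change and length was -0.09. Over 14193 protein-coding genes it was -0.17, and genes are not independent replicates.

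**Figure D4:**
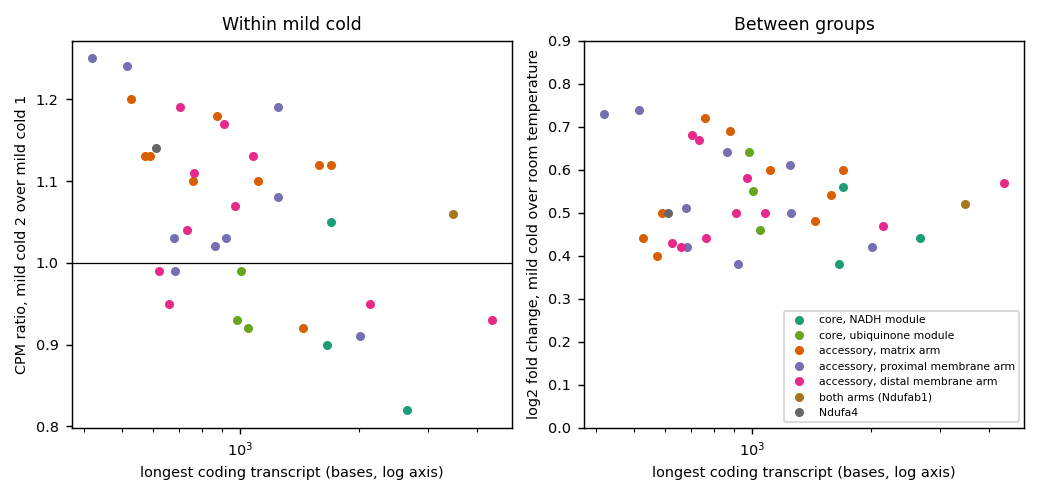
Left, the ratio of CPM in mild cold 2 to mild cold 1 for 36 of the 37 subunits against the length of its longest coding transcript (bases, log axis). Right, the log2 fold change of mild cold over room temperature against the same length. The ratio on the left runs from 0.82 for Ndufs1 to 1.25 for Ndufa1 and is mostly above 1 for short transcripts, while the points on the right show no such slope.

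The 7 core subunits of the membrane arm, encoded in mitochondrial DNA, had a median log2 fold change of 0.50. In edgeR 4 of the 7 had an unadjusted p under 0.05 (9.11% of all genes tested in that direction) and 0 passed the adjusted threshold. mt-Nd1 averaged 48328 ± 14385 CPM across the mild cold libraries against 26334 ± 4982 CPM across those at room temperature and mt-Nd2 36667 ± 8164 CPM across the mild cold libraries against 22216 ± 3469.8 CPM across those at room temperature (SD, n = 3 per group, adjusted p = 0.18 and 0.195 by edgeR). The groups did not overlap for 5 of the 7, with mild cold higher (12.0% of all genes tested), and overlapped for mt-Nd3 and mt-Nd4l. Their summed CPM was 16.5, 22.5 and 17.9 times that of the nuclear subunits in mild cold 1 to 3, against 15.6, 18.5 and 17.7 times in room temperature 1 to 3. This ratio overlapped between the groups and was highest in mild cold 2. Levels of mitochondrially encoded genes are uncertain, since their reads can be shared with nuclear copies.

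Assembly factors build the complex without being part of it. Of 18 listed, 17 were tested. All 17 had a positive log2 fold change, 12 had groups that did not overlap with mild cold higher (12.0% of all genes tested), and 14 had an unadjusted p under 0.05 (9.11%). The median was 0.39, below that of the subunits, and the range was 0.21 to 0.65. Ndufaf1, an early assembly factor, stood at 70.7, 57.7 and 65.1 CPM across mild cold 1 to 3, against 37.6, 49.3 and 36.5 CPM across room temperature 1 to 3 and was the largest of the 17 (0.65). Ndufaf7, a methyltransferase needed for assembly, stood at 30.9, 30 and 32.6 CPM across mild cold 1 to 3, against 21.1, 24.0 and 22.2 CPM across room temperature 1 to 3 (0.47, edgeR adjusted p = 0.0944, the smallest of the 17). Foxred1 had the smallest difference (0.21), with overlapping groups.

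The other complexes of the respiratory chain were also higher in mild cold. Subunits of complex II had a median log2 fold change of 0.46 over 4 genes, those of complex III 0.51 over 9, those of complex IV 0.58 over 11 and those of complex V 0.48 over 15. All 39 of these had an unadjusted p under 0.05 and a higher level in mild cold (9.11% of all genes tested). In each complex the 2 genes with the smallest p, with their log2 fold changes, were Sdhb and Sdhc (0.50 and 0.49), Uqcr11 and Cyc1 (0.64 and 0.56), Cox7a1 and Cox5a (1.04 and 0.60), and Atp5k and Atp5d (0.89 and 0.59). Of 11 mitochondrial genes outside the chain, 8 had groups that did not overlap with mild cold higher (12.0% of all genes tested), and the median was 0.36. Timm23 and Phb, of protein import and the prohibitin ring, had 0.47 and 0.41, while Tomm20, an import receptor, had 0.07 with overlapping groups. No test of these differences between lists was made.

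Markers of heart muscle cells had a median log2 fold change of 0.50 over 12 genes. All 12 values were positive, 5 had an unadjusted p under 0.05 (9.11% of all genes tested in that direction), 6 had groups that did not overlap (12.0%), and 0 passed the adjusted threshold in edgeR. Their summed level was 60828, 49716 and 56665 CPM in mild cold 1 to 3, against 36404, 50117 and 34967 CPM in room temperature 1 to 3, so mild cold 2 lay just below room temperature 2. The subunits stood at 13.8%, 17.3% and 13.8% of that sum in mild cold 1 to 3, against 15.2%, 13% and 15.1% in room temperature 1 to 3. Set against these markers, the subunits did not separate the groups (15.0 ± 2.02% in mild cold and 14.4 ± 1.24% at room temperature, SD, n = 3 per group, a ratio of 1.04).

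Within room temperature the subunits and the muscle markers shared their highest library, room temperature 2. Within mild cold they did not, since mild cold 2 had the highest subunit sum and the lowest marker sum. Single markers differed too. Tnni3, cardiac troponin I, had a log2 fold change of 0.66 and Ryr2, the calcium release channel, 0.74, while Ttn, titin, had 0.15 and Mybpc3, a myosin-binding protein, 0.12, both with overlapping groups and both named after their values were seen.

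Markers of several other cell types had negative medians. Fibroblast markers had a median log2 fold change of -0.64 (8 of 8 negative, 4 without overlap, where 13.1% of all genes tested had mild cold lower without overlap, and 6 with an unadjusted p under 0.05, where 10.6% did, led by Col1a2 at -0.88 and Col1a1 at -0.93), and their sum ran from 2003 to 3349.6 CPM in mild cold and from 3344 to 5414 CPM at room temperature. Smooth muscle markers had a median of -0.78 (4 of 4 without overlap, 13.1% of all genes tested), with sums from 188 to 216 CPM in mild cold and from 251 to 481 CPM at room temperature, where room temperature 1 was highest. Among them Tagln was near the floor, at most 0.979 CPM in any library, and 67.9% of its exon bases lie in exons of other annotated genes. Macrophage markers had a median of -0.31, endothelial markers 0.35, lymphocyte markers -0.91 and erythroid markers 0.52. The lymphocyte value rests on genes near the floor, with sums from 1.35 to 1.89 CPM in mild cold and from 2.70 to 3.79 CPM at room temperature. Of the atrial markers 2 were tested, and Myl4 had 0.748, 1.31 and 1.36 CPM across mild cold 1 to 3, against 918, 1.7 and 1.9 CPM across room temperature 1 to 3. Nppa, the other, had 145, 356.5 and 325 CPM across mild cold 1 to 3. In room temperature 1 to 3 it had 3189, 604 and 733 CPM. The 5 brown fat markers tested had a median of -1.74, with their highest sum in room temperature 1. Most of the sum was Fabp4 (log2 fold change -0.17), whose groups overlapped, as did those of Cidea and Elovl3. Adipoq and Plin1, which white fat also makes, were higher in every room temperature library than in any mild cold library. Ucp1, not tested, held at most 2 counts outside room temperature 1. Cidea stood at 15.9 and 14.2 CPM in room temperature 2 and 3, below every mild cold library. Adipoq ranged over 19.2 to 204 CPM at room temperature and 0.0536 to 15.1 CPM in mild cold. For Plin1 the ranges were 11.6 to 160 CPM and 0 to 9.03 CPM. Of the 4 skeletal muscle markers tested, Tnnt3 and Myh1 were highest in room temperature 3, while Ckm, which heart muscle also makes, had a log2 fold change of 0.62. The summed level of these 4, which leaves out Myh2 and Myh4, was 1.01 times as high in mild cold. Most of that sum was Ckm and Acta1, and Acta1 had a log2 fold change of -0.62 with overlapping groups. The part of these cell types in the difference of the subunits was not tested.

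**Figure D5:**
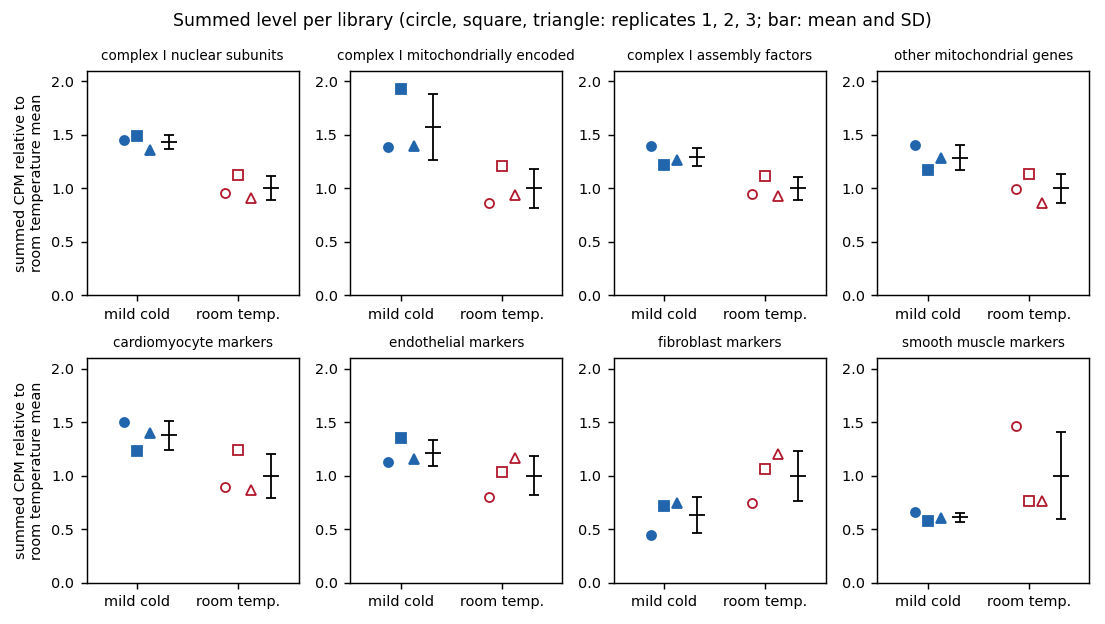
Summed CPM of 8 gene lists in each library, divided by the room temperature mean of the list, with mild cold in filled blue and room temperature in open red, replicates 1, 2 and 3 as circle, square and triangle, and the mean and SD as a bar. The nuclear subunits separate the groups, the heart muscle markers overlap through mild cold 2 and room temperature 2, and the fibroblast markers run the other way.

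Near-identical copies could take reads from a gene. Of the 37 subunits, 8 had an annotated pseudogene with at least 95% identity over at least 100 bases, 10 pseudogenes in all. None of the 10 held more than 75 counts in a library, and the copy's counts were at most 0.967% of its gene's in mild cold and 0.990% at room temperature (Gm4459, a copy of Ndufab1). These counts do not show whether reads matching both a gene and its copy were lost, which was not tested. Apart from Ndufb2, described above, for 6 subunits more than 10% of all exon bases lie in exons of another annotated gene, with the largest shares in Ndufb6, Ndufa13 (30%) and Ndufb9 (19.5%), and their counts are uncertain for that reason.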

How the data were processed

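Hearts of infarcted mice, labelled as whole heart, were measured by RNA-seq in 3 mild cold and 3 room temperature libraries. The authors deposited raw counts per gene, made with featureCounts 2.0.3 on GRCm39 per the submitters' processing notes. The aligner is not given in the sources used here, nor are the annotation release and strand setting. Gene names came from GENCODE M21 (55141 of 55401 identifiers matched), whose coordinates are on GRCm38. Counts were fitted in R 4.3.3 with edgeR 4.0.16 (filterByExpr by group, TMM scaling, quasi-likelihood test) over 16757 genes, with Benjamini-Hochberg adjustment over all of them and a threshold of 0.05. The SE is the absolute log2 fold change divided by the square root of F. The fit was tested on simulated data. DESeq2 1.42.0, limma 3.58.1 (voom), other scalings and filters and the omission of each library were alternatives. The members and lists were chosen with earlier results of these data known. Values in every library are given for core subunits (1 is not reported here) and for the 2 largest and 2 smallest differences of each accessory group. Of other lists, the 2 genes with the smallest p and 4 regulators are named, but no macrophage, endothelial, lymphocyte or erythroid marker is. Of the smooth muscle markers only Tagln is named. Further genes were named after their values were seen.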

Additional observations from a re-analysis of the deposited data

How the results depend on the processing

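Across 18 alternatives, the 21 subunits named by rule kept a higher level in mild cold, and 353 of their values stayed on the same side of the adjusted threshold. The other 25 passed it, 20 with the DESeq2 Wald test and 5 with no expression filter. With the DESeq2 Wald test, 36 members and 1414 of all genes passed the adjusted threshold, and with no expression filter 5 members and 184 genes did. With library totals only, 22 members had an unadjusted p under 0.05, their median log2 fold change was 0.25 and 356 of all genes passed the adjusted threshold. The cause of these differences was not tested. Leaving out each library in turn gave 35 to 37 members at an unadjusted p under 0.05, 0 members past the adjusted threshold, a median of 0.46 to 0.61, and 0 to 2 of all genes past the adjusted threshold, with 2 genes without room temperature 1. Same-numbered libraries did not deviate together (correlations 0.118, -0.135 and -0.00718), so the numbers are not read as pairs. A fit with the replicate number as a block called 1 gene of all those tested, and left the members at 37 with an unadjusted p under 0.05 and 0 past the adjusted threshold. For this fit and those with a library left out, the share of all genes at an unadjusted p under 0.05 is not given here. The member counts of these fits therefore stand without it. With 3 libraries per group and no statement that these are separate animals, the adjusted p-values rest on little replication.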
